A study of Mus musculus with 6 samples.

Results

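The lncRNAs described here are the 19 newly assembled transcripts, of 18573 in the table, that lie at imprinted genes outside the Meg3 cluster. They were chosen by position and name and not by their values, as the transcripts assigned to Grb10, Gnas or Impact or with a locus overlapping a window around Grb10, Gnas, Impact, Peg3 with Usp29, or Slc38a4. In GENCODE M21 on mm10 these genes lie on chromosome 11 from 11930508 to 12038683 (Grb10, 9 transcripts), chromosome 2 from 174284320 to 174346744 (Gnas, 3 transcripts), chromosome 18 from 12955852 to 12992950 (Impact, 2 transcripts), chromosome 7 from 6703892 to 6730431 for Peg3 and 6730578 to 6967219 for Usp29 (2 transcripts), and chromosome 15 from 96994820 to 97055956 (Slc38a4, 3 transcripts), and each window also took in flanking sequence. The windows were chosen with earlier results of these data known. The 19 transcripts belong to 13 assembled genes.

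Spermatogonial stem cells (SSCs) from testis and female germline stem cells (FGSCs) from ovary were each sequenced as 3 strand-specific libraries of total RNA depleted of rRNA. The sample labels give the strain as C57BL/6 for all 6 libraries, with donors of 3 to 5 days for the SSC libraries and of 6 days for the FGSC libraries, while the methods of the study give these ages the other way round. By those methods the cells came from pooled Ddx4-Cre; mT/mG mice, in which Cre under the germ cell promoter Ddx4 switches a membrane fluorescent protein to EGFP, and EGFP-positive cells that bound to laminin were kept. The methods name an FVB background for the Ddx4-Cre line and a B6.129 background for the mT/mG line, which differ from the strain in the labels. The table holds 1 FPKM value (fragments per kilobase of transcript, scaled to the number of mapped fragments) per transcript for SSCs and 1 for FGSCs, which the authors computed over the 3 libraries. No value below therefore has an SD, an n or a test between replicates, the number of reads behind a value is unknown, and a difference between SSCs and FGSCs could not be set against the spread between libraries. In such bulk samples fewer cells with a transcript and less of it per cell cannot be told apart.

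An imprinted gene is transcribed mainly from the copy inherited from a given parent, because DNA methylation was placed on CpG sites of a control region in either the egg or the sperm lineage. These marks are erased in primordial germ cells and set again by sex, before birth in the male germline and during the growth of oocytes after birth in the female germline. Many imprinted regions also make noncoding RNAs, often antisense to the coding gene. In mouse, Grb10 encodes an adaptor protein that restrains insulin and growth factor receptors and is maternally expressed in most tissues. Gnas encodes the stimulatory G protein alpha subunit and, from further promoters, imprinted products, opposite to which the paternal antisense RNA Nespas is made. Impact encodes an inhibitor of the eIF2 alpha kinase Gcn2, Peg3 a zinc finger protein, Usp29 a protein of the ubiquitin-specific protease family, and Slc38a4 an amino acid transporter, and these are known as paternally expressed genes.

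The sequences that the results refer to are shown first, since imprints rest on CpG sites and since the antisense transcripts at Gnas lie on the strand of a pair of imprinted miRNA genes. In the first set the capitals mark CG dinucleotides. The Usp29 promoter, chr7:6730333-6730632 on the plus strand, is shown because the locus of both lncRNAs in that window has 1 of its ends in it, the 5′ end for TCONS_00131171 on the plus strand and the 3′ end for TCONS_00137591 on the minus strand. That end of the locus is the annotated start of the small RNA gene Gm27675 in GENCODE M21. The locus can be wider than a transcript, so the ends of the transcripts themselves may lie elsewhere. The Slc38a4 promoter, chr15:97055907-97056206 on the minus strand, is that of the gene whose splice junctions a pair of the transcripts share. Both promoters are from RefSeq (build GRCm38.p6, the assembly of mm10).
Usp29 promoter: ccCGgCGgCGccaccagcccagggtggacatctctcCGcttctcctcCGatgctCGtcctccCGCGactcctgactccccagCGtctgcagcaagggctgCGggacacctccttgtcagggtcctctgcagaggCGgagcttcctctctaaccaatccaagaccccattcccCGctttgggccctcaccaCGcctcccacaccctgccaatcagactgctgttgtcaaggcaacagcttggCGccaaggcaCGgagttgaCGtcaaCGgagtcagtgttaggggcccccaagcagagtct
Slc38a4 promoter: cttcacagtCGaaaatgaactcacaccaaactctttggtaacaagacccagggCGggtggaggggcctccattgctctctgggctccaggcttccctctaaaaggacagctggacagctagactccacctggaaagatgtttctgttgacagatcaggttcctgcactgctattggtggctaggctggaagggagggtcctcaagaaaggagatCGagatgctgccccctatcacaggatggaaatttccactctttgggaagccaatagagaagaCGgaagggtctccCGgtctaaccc

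The Usp29 promoter held 17 CG dinucleotides, more than 68.6% of the RefSeq promoters of the same length, whose median was 7. The Slc38a4 promoter held 5. Of the promoters of Grb10, Gnas, Peg3, Usp29 and Slc38a4 in RefSeq, the upstream promoter of Grb10 had 45 CG dinucleotides and the promoter of Gnas at 174329756 to 174330055 had 40. The letters TGCCGC, the core of the motif of ZFP57, a zinc finger protein that protects imprints, were searched on both strands. They were in the upstream Grb10 promoter, in none of the other promoters of these genes in RefSeq, and in 11.6% of all RefSeq promoters of that length. No promoter of Impact was among those examined by gene. Whether the promoters hold the control regions of the imprints was not tested.

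The miRNA genes Mir296 and Mir298 lie on the minus strand of chromosome 2, at 174267047 to 174267125 and 174267504 to 174267585, inside the locus of the Gnas antisense transcripts. Their mature forms in RefSeq (GRCm38.p6) are shown with the seed, bases 2 to 8, in capitals, and the 4 seeds all differ. Levels of the miRNAs were not analysed here.
mmu-miR-296-5p: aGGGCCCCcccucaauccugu
mmu-miR-296-3p: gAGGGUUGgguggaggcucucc
mmu-miR-298-5p: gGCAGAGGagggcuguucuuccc
mmu-miR-298-3p: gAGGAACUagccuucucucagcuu

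By their relation to known transcripts, the table puts the 19 in 4 classes, with 7 antisense (overlapping exons on the opposite strand), 9 intergenic, 2 splice-sharing (a splice junction in common with a known transcript) and 1 sense-overlapping. The strand of an intergenic transcript is not a column of the table, but the transcript IDs run along the plus strand and then the minus strand of each chromosome, an order that gave the right strand for 2546 of 2547 transcripts whose strand a reference transcript fixed. Read this way, 14 of the 19 lay on the strand opposite to the coding gene of their window (Usp29 in the window shared with Peg3), and 5 lay on its strand. The 14 on the opposite strand had a summed level of 6.47 FPKM in SSCs against 10.8 FPKM in FGSCs, and 10 of them had the higher value in FGSCs, as did 64.0% of all transcripts. With equal medians or after quantile normalization, settings added here after seeing the values, this held for 8 of the 14. Of all transcripts, 59.9% had the higher value in FGSCs with equal medians and 56.2% after quantile normalization. The 5 on the same strand had a summed level of 4.97 FPKM in SSCs against 3.02 FPKM in FGSCs. Over all transcripts the sum was 15528 FPKM in SSCs against 13556 FPKM in FGSCs. Of the 5, 4 had the higher value in SSCs, as did 35.95% of all transcripts. Most of the difference between the sums of the 5 was TCONS_00083772, beyond the end of Gnas. Without it, a sum also added after seeing the values, the other 4 on this strand had 3.05 FPKM in SSCs against 2.95 FPKM in FGSCs. Several transcripts share a locus and can share reads, so these are not independent measurements.

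**Figure D1:**
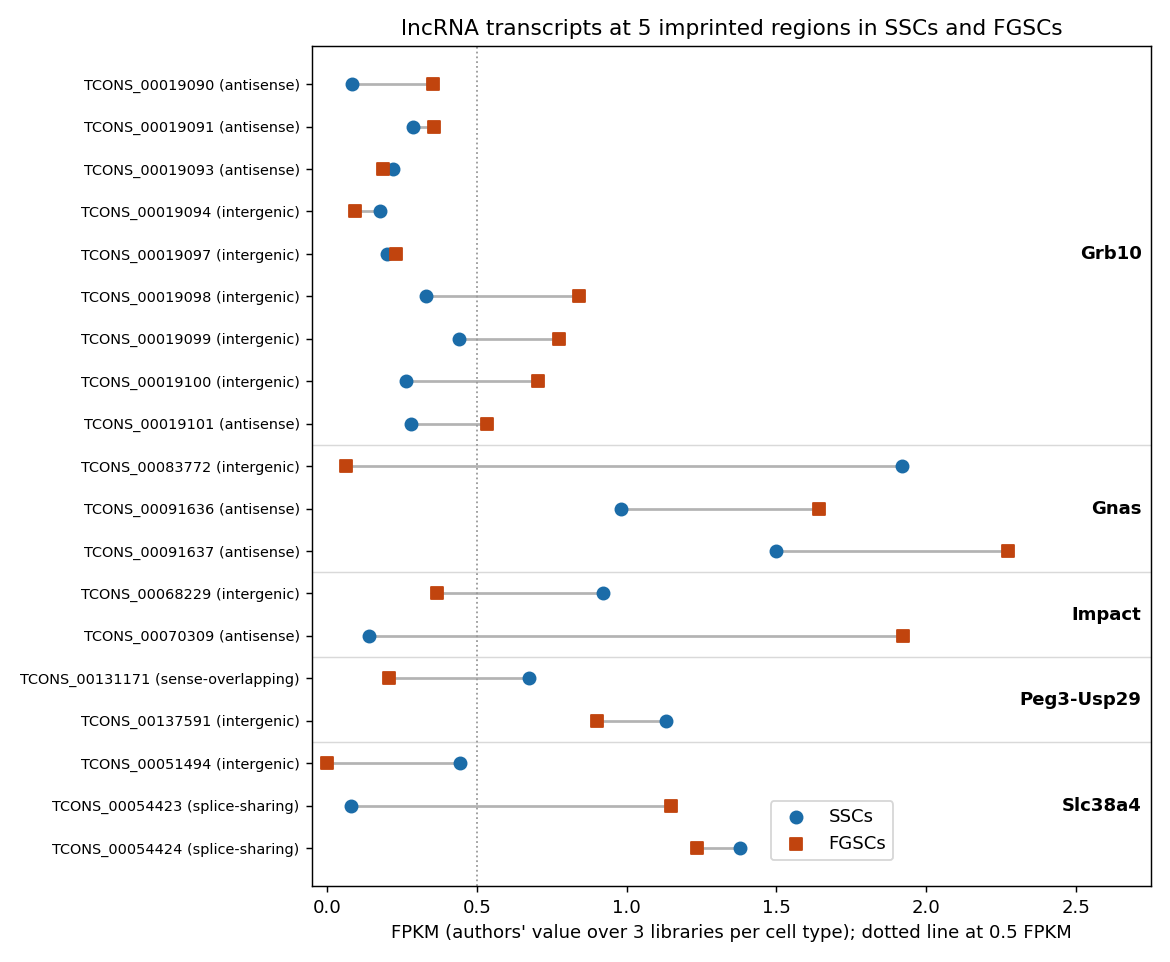
FPKM on the x axis of each of the 19 transcripts, by window, in SSCs (blue circles) and FGSCs (orange squares), with a grey line joining the values of a transcript; each point is the authors' value over 3 libraries and has no error bar. The Grb10 transcripts sit below 1 FPKM, and the longest lines are those of TCONS_00083772, TCONS_00070309 and TCONS_00054423.

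All 19 were of low abundance. The median was 0.331 FPKM in SSCs against 0.535 FPKM in FGSCs. Over all transcripts of the table it was 0.251 FPKM in SSCs against 0.442 FPKM in FGSCs. Above 1 FPKM in SSCs or FGSCs were 7 of the 19, and the highest values were 1.92 FPKM in SSCs (TCONS_00083772) and 2.27 FPKM in FGSCs (TCONS_00091637). All 19 were above 0 FPKM in SSCs and 18 in FGSCs, while 18.9% of all transcripts were listed at 0 in SSCs and 7.16% in FGSCs.

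Differences are given as log2((SSC FPKM + 0.5) / (FGSC FPKM + 0.5)), so that a positive value is higher in SSCs. The pseudocount of 0.5 makes the differences of low transcripts smaller than their plain ratios, whose size is uncertain where a value is low. A transcript was counted as past the fold when this value was beyond 1 in either direction and at least 0.5 FPKM was reached in SSCs or FGSCs. Of the 19, 13 reached 0.5 FPKM, 4 of them in both cell types, 3 only in SSCs and 6 only in FGSCs. Past the fold was 1 transcript higher in SSCs, at Gnas, where 23.2% of all 12019 transcripts at this level were. Past it in the other direction were 2 transcripts higher in FGSCs, at Impact and Slc38a4, where 31.0% of all were. By class, 1 of 4 antisense transcripts at this level was past the fold, towards FGSCs, where 47.5% of all antisense transcripts were past it, 22.2% towards SSCs and 25.3% towards FGSCs. Of 6 intergenic ones 1 was past it, towards SSCs, where 55.3% of all were, 23.6% towards SSCs and 31.7% towards FGSCs. Of 2 splice-sharing ones 1 was past it, towards FGSCs, where 50.6% of all were, 20.3% towards SSCs and 30.3% towards FGSCs. The sense-overlapping one was not, where 38.4% of all were, 9.27% towards SSCs and 29.1% towards FGSCs. Together the 3 made up 23.1% of the 13, and 54.2% of all transcripts at this level were past the fold. The median difference was -0.44 over the 13 and -0.42 over all transcripts at this level. Without the level it was -0.12 over the 19 and -0.44 over all 18573 transcripts. After scaling both cell types to equal medians, the median over transcripts at this level moved to 0.14 from the unscaled -0.42, and 54.8% of the calls over all transcripts, against 42.8% without scaling, were higher in SSCs.

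**Figure D2:**
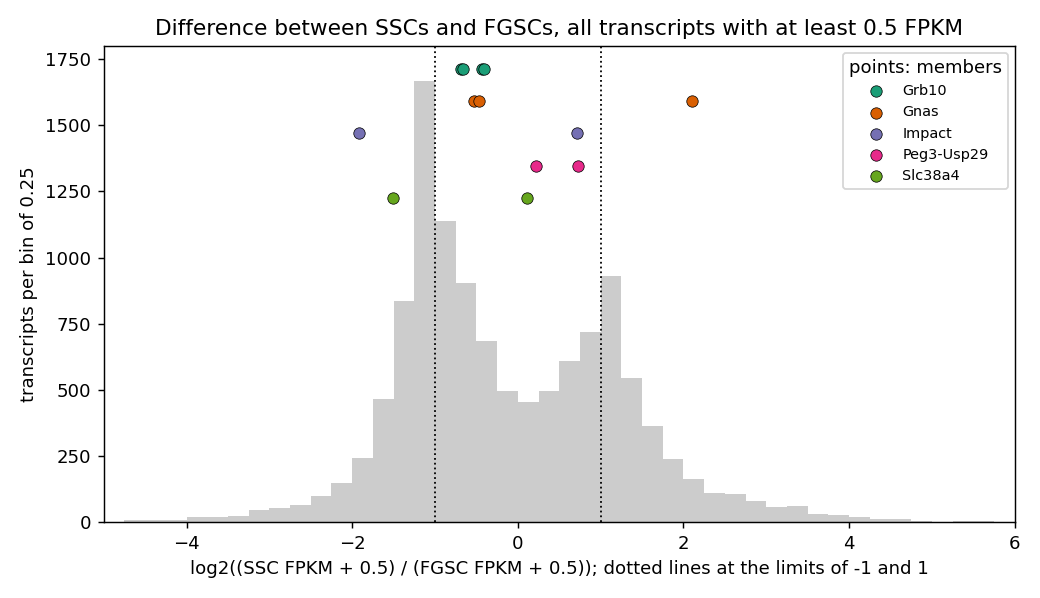
Histogram of the log2 difference between SSCs and FGSCs (x axis, positive for higher in SSCs) over the 12019 transcripts with at least 0.5 FPKM, as the number of transcripts per bin of 0.25 (y axis), with the 13 transcripts of the imprinted windows as points, a row per window at an arbitrary height. All but 3 points lie between the dotted limits of -1 and 1.

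At Impact, the transcripts on either strand differed in opposite directions. TCONS_00070309, on chromosome 18 from 12961154 to 12992948, is antisense to Impact and had 0.141 FPKM in SSCs against 1.92 FPKM in FGSCs, 13.6 times more in FGSCs. Its log2 difference was -1.92, past the fold, and with a low SSC value the size of the ratio is uncertain. Its value in FGSCs was above 94.8% of all transcripts there, while its value in SSCs was near the middle of the table, at the 40.6th percentile. TCONS_00068229, from 12955855 to 12957051, had 0.920 FPKM in SSCs against 0.366 FPKM in FGSCs, a log2 difference of 0.71 that is not past the fold. The table calls it intergenic, but it lies on the strand of Impact and its locus begins 3 bp after the start of that gene in GENCODE M21 and 1165 bp after it in RefSeq. Exons of Impact in GENCODE M21 cover 135 bp of this locus. Whether TCONS_00068229 shares exons with Impact was not tested, since its own exons were not used here. The window had a summed level of 1.06 FPKM in SSCs against 2.29 FPKM in FGSCs.

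At Slc38a4, 1 of 2 isoforms had the large difference. TCONS_00054423 and TCONS_00054424 are 2 transcripts of the same assembled gene, on chromosome 15 from 96994816 to 97055956, and each shares a splice junction with Slc38a4. TCONS_00054423 had 0.0792 FPKM in SSCs against 1.15 FPKM in FGSCs, 14.5 times more in FGSCs, with a log2 difference of -1.51 that is past the fold. With the low SSC value the size of this ratio is uncertain. TCONS_00054424 had 1.38 FPKM in SSCs against 1.23 FPKM in FGSCs, a log2 difference of 0.12. The first isoform thus made up 5.43% of their summed FPKM in SSCs and 48.1% in FGSCs. The division of reads between isoforms that share exons is an estimate of the authors' software, and the exons that set the isoforms apart were not used here.

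The remaining transcript of the window, the intergenic TCONS_00051494, lies from 96992830 to 96993504, 1316 bp beyond the 3′ end of Slc38a4 and on the opposite strand. It had 0.443 FPKM in SSCs and was listed at 0 in FGSCs, below the level of 0.5 FPKM. Repeats masked in the reference made up 73.2% of its 675 bp, more than in 95.5% of the 7191 loci of 500 to 1300 bp in the table. The window had a summed level of 1.90 FPKM in SSCs against 2.38 FPKM in FGSCs, an order that turned to a ratio of 1.03 (SSCs over FGSCs) with equal medians.

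At Gnas, 2 antisense transcripts and a transcript beyond the gene were assembled. TCONS_00091636 and TCONS_00091637 belong to separate assembled genes that share the locus from 174266243 to 174346744 on chromosome 2, which covers Gnas, Nespas, Mir296 and Mir298. It also covers Gm20721 of GENCODE M21 and the RefSeq lncRNA Gm30189. Both transcripts lie on the minus strand, as all of these genes but Gnas do. The locus can be wider than a transcript, and whether either transcript reaches Nespas or the miRNA genes was not tested. TCONS_00091636 had 0.982 FPKM in SSCs against 1.64 FPKM in FGSCs, a log2 difference of -0.53. TCONS_00091637 had 1.5 FPKM in SSCs against 2.27 FPKM in FGSCs, a log2 difference of -0.47. Neither was past the fold, and both kept the lower value in SSCs under the 4 other pseudocounts and scalings tried. They were among the more abundant transcripts of the table, TCONS_00091637 above 92.0% of all in SSCs and 95.9% in FGSCs.

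TCONS_00083772 is an intergenic transcript with a locus of 580 bp, from 174357753 to 174358332, which begins 11009 bp after the 3′ end of Gnas and on its strand. It had 1.92 FPKM in SSCs against 0.0626 FPKM in FGSCs, 30.7 times more in SSCs. Its log2 difference was 2.1, past the fold, and with a low FGSC value the size of the ratio is uncertain. In SSCs TCONS_00083772 stood above 94.2% of the transcripts of the table and in FGSCs above 13.3%. Of its 580 bp, 55.9% were masked repeats, more than in 90.8% of the loci of 500 to 1300 bp. Reads from repeats can be shared with other copies in the genome, and how the authors counted such reads is not given in the sources used here. The Gnas window had a summed level of 4.40 FPKM in SSCs against 3.98 FPKM in FGSCs, while its antisense pair alone had a summed level of 2.48 FPKM in SSCs against 3.92 FPKM in FGSCs.

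At Peg3 and Usp29, both transcripts had more FPKM in SSCs. Their locus, on chromosome 7 from 6730598 to 6766734, has its lower coordinate 20 bp after the start of Usp29 in GENCODE M21 and 167 bp from that of Peg3, which is transcribed the other way. This is the 5′ end of the locus for TCONS_00131171 and the 3′ end for TCONS_00137591. The lower coordinate is also the annotated start of Gm27675, so these distances hold for that gene as well. The locus can be wider than a transcript, and where each transcript itself begins and ends was not examined. TCONS_00131171, which overlaps the small RNA gene Gm27675 on the strand of Usp29, had 0.673 FPKM in SSCs against 0.206 FPKM in FGSCs, 3.26 times more in SSCs, with a log2 difference of 0.73. TCONS_00137591 lies on the strand of Peg3, is called intergenic and had 1.13 FPKM in SSCs against 0.901 FPKM in FGSCs, a log2 difference of 0.22. Neither was past the fold. The window had a summed level of 1.80 FPKM in SSCs against 1.11 FPKM in FGSCs. No transcript of the table is assigned to Peg3 or Usp29 by name.

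At Grb10, 9 transcripts were assembled at a shared locus from 11930503 to 12127998 on chromosome 11, which covers Grb10 and the sequence before its start up to the pseudogene Gm12001. All 9 lay on the strand opposite to Grb10, and 6 of them were isoforms of the same assembled gene. Those assigned to Grb10 itself were TCONS_00019090 with 0.0820 FPKM in SSCs against 0.354 FPKM in FGSCs, TCONS_00019091 with 0.286 FPKM in SSCs against 0.356 FPKM in FGSCs, and TCONS_00019093 with 0.218 FPKM in SSCs against 0.187 FPKM in FGSCs. None of these 3 reached 0.5 FPKM. TCONS_00019101, the isoform antisense to Gm12001, had 0.280 FPKM in SSCs against 0.535 FPKM in FGSCs, a log2 difference of -0.41. The other isoforms, TCONS_00019094 and TCONS_00019097, are called intergenic and had 0.175 and 0.200 FPKM in SSCs and 0.0916 and 0.230 FPKM in FGSCs.

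The 3 single-transcript genes in the Grb10 window had the highest levels there, in FGSCs. TCONS_00019098 had 0.331 FPKM in SSCs against 0.840 FPKM in FGSCs, with a log2 difference of -0.69. TCONS_00019099 had 0.441 FPKM in SSCs against 0.773 FPKM in FGSCs, with a log2 difference of -0.44. TCONS_00019100 had 0.264 FPKM in SSCs against 0.705 FPKM in FGSCs, with a log2 difference of -0.66. In all, 7 of the 9 had the higher value in FGSCs, as did 64.0% of all transcripts. The 9 share a locus and can share reads, so they are not independent measurements. The window had a summed level of 2.28 FPKM in SSCs against 4.07 FPKM in FGSCs, 1.79 times more in FGSCs. None of the 9 was past the fold, and the order of SSCs and FGSCs turned for TCONS_00019091 and TCONS_00019097 with equal medians and after quantile normalization.

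**Figure D3:**
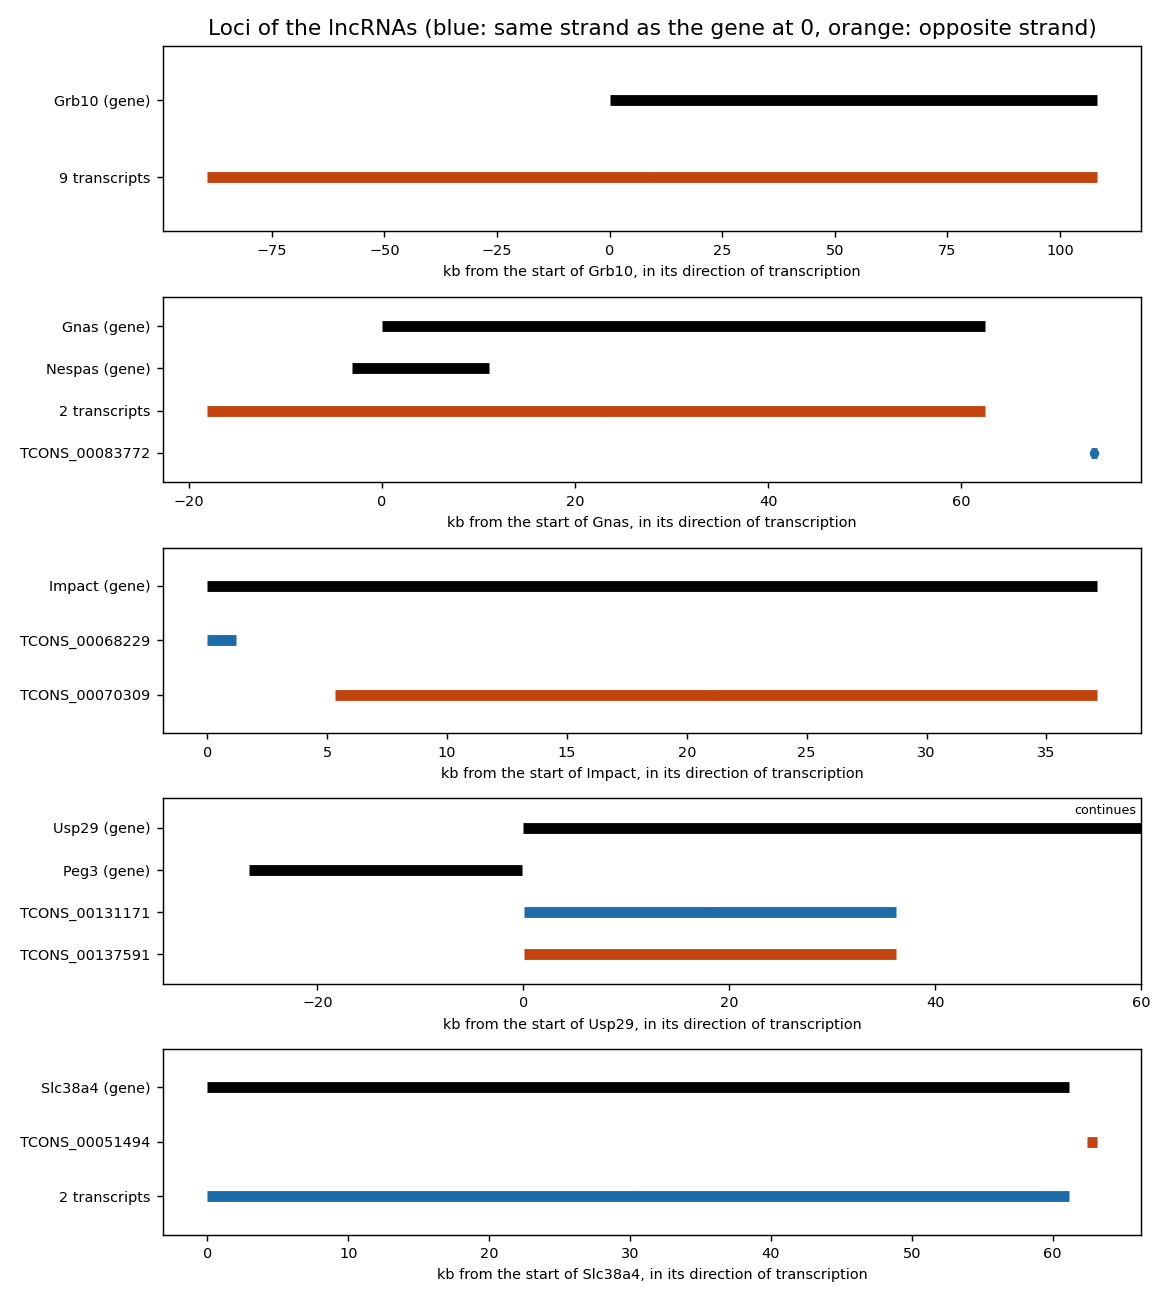
Loci of the 19 transcripts on a scale in kb from the start of the coding gene of each window (GENCODE M21), with genes in black, loci on the strand of the gene at 0 in blue and loci on the opposite strand in orange. A bar is the locus column of the table, which can be wider than a transcript, and the 9 Grb10 transcripts share the same bar; Usp29 runs on beyond the right edge.

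Most of the imprinted genes listed here had no newly assembled lncRNA assigned to them by name. The share over all genes was not computed, so the counts for this and the other gene lists cannot be set against it. Of all 18573 transcripts, 15982 were intergenic, and no intergenic one among the 19 carried a gene name. Of 40 genes listed as paternally expressed in mouse, 2 had a lncRNA assigned by name, namely Impact and Slc38a4 with the 3 transcripts given above. Of 35 listed as maternally expressed, 3 had any, namely Grb10, Meg3 and Mirg, with 11 transcripts. Outside the 5 windows these were splice-sharing isoforms of the maternal noncoding RNAs Meg3 and Mirg, of which 1 of 5 at 0.5 FPKM or more was past the fold towards SSCs and 1 towards FGSCs, beside 20.3% and 30.3% of all splice-sharing transcripts. TCONS_00034198 at Meg3 had 8.18 FPKM in SSCs against 0.191 FPKM in FGSCs, and TCONS_00034328 at Mirg had 0.197 FPKM in SSCs against 1.15 FPKM in FGSCs. Of 4 genes whose imprint differs by isoform or tissue (Gnas, Ddc, Xist and Tsix), Gnas had its antisense pair, and the neighbours Slc38a1 and Slc38a2 had none. Of 19 genes of the imprinting machinery, such as the DNA methyltransferases and the Tet enzymes, none had one. The cell types themselves could not be checked, since the mRNAs of marker genes were not analysed here. Of 25 markers of germ, Sertoli, Leydig, granulosa and smooth muscle cells and oocytes, 2 had a lncRNA in the table, both antisense. They were TCONS_00094603 at Hsd3b1, a steroid synthesis gene, with 0.0136 FPKM in SSCs against 2.21 FPKM in FGSCs, and TCONS_00124433 at Actg2, a smooth muscle actin, with 0.240 FPKM in SSCs against 1.13 FPKM in FGSCs. Both were past the fold towards FGSCs, as were 25.3% of all antisense transcripts at 0.5 FPKM or more. These antisense transcripts are not the mRNAs of the markers. Whether other cell types had a part in the differences above was not tested.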

How the data were processed

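Total RNA of SSCs and FGSCs was depleted of rRNA and sequenced in strand-specific libraries, 3 per cell type. The submitters' processing notes name TopHat2, Cufflinks, Cuffdiff 2.1.1 and mm10, and the methods of the study add Scripture for the assembly and filters on length, exons, coverage, known RNAs and coding potential. The deposited FPKM values are the authors', from Cuffdiff, with 1 value per transcript and cell type over the 3 libraries. Depth per transcript is unknown, and no interval was given. Columns of the authors' own comparison (fold changes, test scores, p-values and significance) were not used.

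From the FPKM values, log2 differences were computed with a pseudocount of 0.5 and counted past an absolute value of 1 at 0.5 FPKM or more. No test was made, since 1 value per cell type leaves no replicate error. Windows, gene lists and rules were chosen with earlier results of these data known. Every member is given with its values. Coordinates are 1-based: the table's starts were raised by 1 and then match Gm27675 and Slc38a4 in the annotation. The upper coordinates of the shared loci at Gnas, Slc38a4 and Grb10 are those of Gnas, Slc38a4 and Gm12001 in the annotation. Such ends need not be those of a transcript. GENCODE M21 and RefSeq (GRCm38.p6) served for genes. The calculations were tested on simulated data. Alternatives were other pseudocounts, filters, scalings, a stricter fold and members by gene name alone. Python 3.11.15, pandas 2.3.3, NumPy 2.4.6, pysam 0.24.0 and matplotlib 3.10.9 served for these steps. Known lncRNAs, mRNAs and circRNAs were not analysed here.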

Additional observations from a re-analysis of the deposited data

How the results depend on the processing

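The counts past the fold were small and moved with the settings. With a pseudocount of 0.1 FPKM, 3 transcripts were past it towards SSCs and 4 towards FGSCs, where 32.1% and 45% of all transcripts were. With a pseudocount of 1 FPKM, 1 was past it towards FGSCs, where 9.93% of all were, as TCONS_00054423 came to -0.99. With equal medians, 2 were past it towards SSCs, where 29.8% of all were. Beyond a log2 difference of 2, 0 were past it towards FGSCs, where 4.33% of all were. With members taken by gene name alone, 5 were at the level and 0 were past it towards SSCs, where 23.2% of all were, since TCONS_00083772 carries no name. The other counts, after quantile normalization, with no filter and with at least 1 FPKM, were the same, out of 12, 19 and 7 members. Of all transcripts, the shares towards SSCs and FGSCs were 29.5% and 23.1% after quantile normalization. They were 15% and 20.1% with no filter, and 36.8% and 36.4% with at least 1 FPKM. The window sums moved by less than 1.5 times with equal medians. Of the 19 transcripts, 17 kept their direction under the 2 other pseudocounts and 2 scalings. TCONS_00019091 moved to 0.02 and 0.24 and TCONS_00019097 to 0.05 and 0.35 with equal medians and after quantile normalization. TCONS_00083772 ranged over 1.46 to 3.64 and TCONS_00070309 over -3.07 to -1.36. No paired analysis was possible because the table holds 1 value per transcript and cell type, and for the same reason no library could be left out.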

Other observations

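Outside the windows, the nearest newly assembled transcripts on either side were all unnamed intergenic ones, except the one after Gnas, TCONS_00091643 at Atp5e, which lay 101072 bp away and had 0.25 FPKM in SSCs against 0.0995 FPKM in FGSCs. TCONS_00137572, 48127 bp before the Peg3 and Usp29 window, had 2.51 FPKM in SSCs against 0.635 FPKM in FGSCs. TCONS_00054422, 186772 bp before the Slc38a4 window, had 8.19 FPKM in SSCs against 0.798 FPKM in FGSCs, more than any of the 19 transcripts in SSCs. TCONS_00019088, 106270 bp before the Grb10 window, had 0.0832 FPKM in SSCs against 0.814 FPKM in FGSCs. TCONS_00070279, 356788 bp before the Impact window, was listed at 0 in SSCs against 0.554 FPKM in FGSCs. After that window the next transcript was 1586500 bp away, TCONS_00070315 with 0.0229 FPKM in SSCs against 0.274 FPKM in FGSCs.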
